A study of Homo sapiens with 36 samples.

Results

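The windows described here lie in small nuclear RNA genes, 7SK and 7SL genes, and a few other short structured RNA genes. They were chosen by gene symbol, as every window of the 9 lists of eCLIP (enhanced crosslinking and immunoprecipitation) whose symbol is that of a U RNA, 7SK, 7SL, RMRP, RPPH1 or vault RNA gene or copy. The rule gave 130 windows out of 788098, which are 79 distinct windows out of 601384 and belong to 59 genes. All 130 were annotated by the authors as exons of small RNAs, and they were between 53 and 99 nt long. The study immunoprecipitated 9 proteins from HEK293T, a cell line of human embryonic kidney origin: CPSF5, CPSF6, EIF4B, GRB2, LGALS3, MBNL2, RBM10, RBM22 and RNPS1. Each protein had 2 immunoprecipitated (IP) and 2 input libraries, and no group received a treatment. The antibody was directed either at the protein or at a V5 tag, and the labels do not state which was used for which protein, so a group may rest on tagged or on endogenous protein. Whether replicates were separate cultures is not given, so their spread may be technical.

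Small nuclear RNAs (snRNAs) are the RNA core of the spliceosome. U1 pairs with the 5' splice site and U2 with the branch point. U4 and U6 enter as a pair together with U5, after which U6 replaces U1 at the 5' splice site and forms the catalytic centre with U2. The minor spliceosome uses U11, U12, U4atac and U6atac in their place. 7SK holds the elongation factor P-TEFb in an inactive complex, and 7SL is the scaffold of the signal recognition particle. These RNAs are abundant and come from many near-identical genes, and the genome also carries large numbers of copies with a P in the symbol that are annotated as pseudogenes. A read from U6 or 7SK can therefore resemble several places. How reads that match several places were treated is not given in the sources used here, so a window in a copy may hold reads of the parent RNA and windows of 1 class are not independent. Of the 59 symbols, 56 were found among RefSeq genes of GRCh38.p14, and these gave the gene ends used to place the windows.

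Classes divided by protein. RBM10 had 29 windows and RBM22 20, of which 26 and 16 were in U2 or U6 genes, and neither had a window with a 7SK symbol of its own. CPSF5 had 25 windows, 21 of them in 7SK copies and 4 in U2 copies. RNPS1 had 26, of which 14 were in 7SK copies, 5 in U2 and 4 in U6 genes. MBNL2 had 10, EIF4B 7, CPSF6 7, GRB2 3 and LGALS3 3. As a share of each list, the 20 RBM22 windows made up 0.231% (95% Wilson interval 0.149 to 0.356) and the 29 RBM10 windows 0.102% (0.0708 to 0.146). The share was 0.0644% (0.0436 to 0.0950) for CPSF5, 0.299% (0.102 to 0.877) for LGALS3, 0.0233% for MBNL2, 0.0170% for RNPS1, 0.0102% for EIF4B, 0.00450% for CPSF6 and 0.00103% for GRB2. The intervals cover counting error only and lists differ in length, so the order of these shares was not tested.

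**Figure D1:**
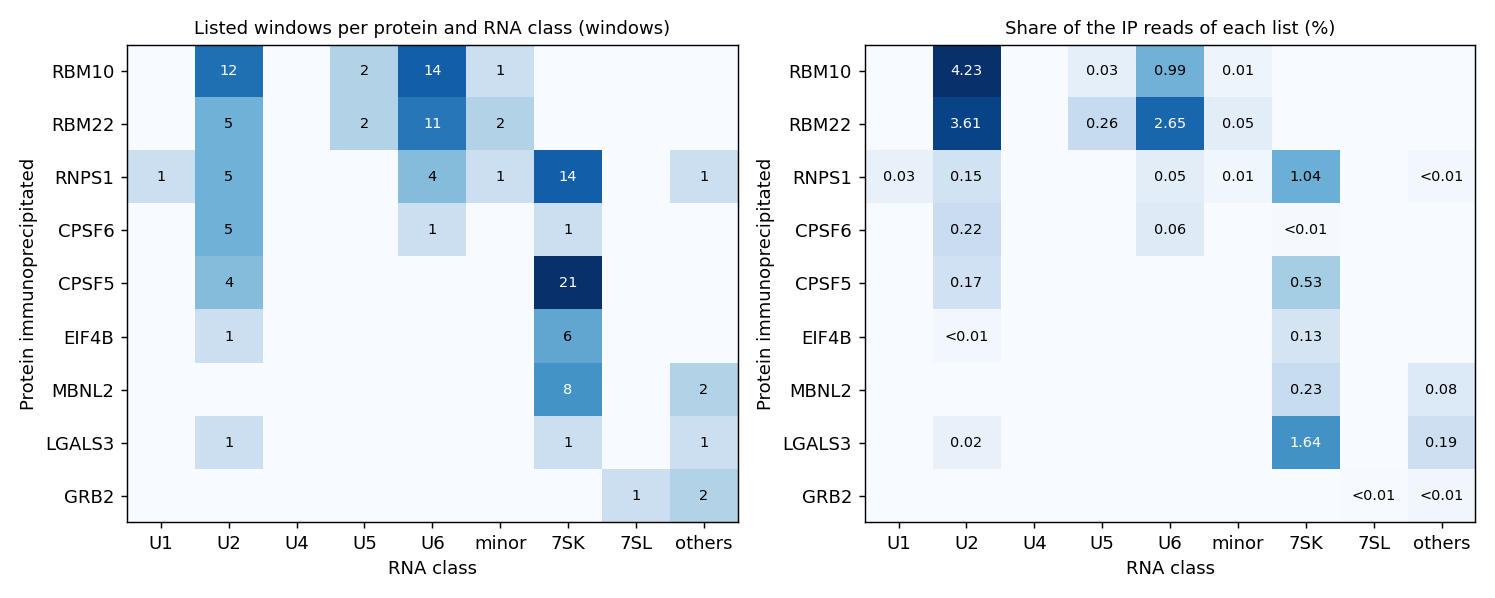
Number of listed windows (left) and percentage of the IP reads of each list (right) for every protein (rows) and RNA class (columns), with the shade on a square-root scale. RBM10 has the most U2 windows (12) and U6 windows (14) and CPSF5 the most 7SK windows (21), while by IP reads the largest 7SK share is that of LGALS3, from 1 window.

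The share of reads in these windows exceeded their share of windows in each list, in some because of 1 window. In the RBM22 list they took 6.56% of all IP reads and 10.4% of input reads, and in the RBM10 list 5.26% and 8.58%. Both proteins thus had a larger share of input than of IP reads in these windows, as had the other 7 lists. LGALS3 followed with 1.85% of IP and 2.08% of input reads, RNPS1 with 1.28% and 2.73%, CPSF5 with 0.701% and 1.37%, MBNL2 with 0.309% and 0.421%, CPSF6 with 0.282% and 1.14%, EIF4B with 0.132% and 0.481%, and GRB2 with 0.00442% and 0.00579%. Median IP reads per window, summed by the authors over both replicates, were 538.5 in RBM22 against 36.0 over its whole list, 259.0 in RBM10 against 45.0, and 53.0 in EIF4B against 46.0. Covered lengths were 1348 nt in RBM22, 2075 nt in RBM10, 2187 nt in CPSF5 and 2055 nt in RNPS1. One window could carry most of a share: RN7SKP255 held 95.6% of these reads in EIF4B, 88.4% in LGALS3 and 73.3% in MBNL2. Without their largest window, the share of IP reads fell to 0.00586% in EIF4B and 0.215% in LGALS3, below the share of windows, and to 0.00104% in GRB2, close to it.

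RBM22 is a component of the activated spliceosome that contacts U6 and the 5' splice site region. Its strongest windows within the set were in the U6 class, most of them in copies annotated as pseudogenes. The enrichment used here is the authors' log2 odds ratio of IP over input, deposited as a lower and a higher value over the 2 replicates without naming the library. The 11 U6 windows had a median of 3.74 in the lower replicate, with a range of 1.36 to 6.69, while the 5 U2 windows ran from 1.40 to 2.20 with a median of 1.60. The median over all 8671 RBM22 windows was 2.12. Among the U6 windows 7 of 11 reached a lower value of at least 3 and so did 7 of the 20 RBM22 windows of any class, against 15.2% of the whole list. Both replicates had q-values no higher than 0.05 in 17 of 20, against 34.8% of the list. The q-value depends on read number, which was higher in these windows.

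The strongest RBM22 window of the set was RNU6-49P (chromosome X, 37870109 to 37870161, plus strand), a U6 copy, with log2 enrichments of 6.69 and 7.63, 505 IP reads and 3 input reads. It ranked 8 among the 8671 windows of the list. Next came a gene named U6 on chromosome 1 (43716467 to 43716556, plus strand), with 6.67 and 9.04, 443 IP reads and 1 input read, at rank 9. RNU6-17P (chromosome 15, 30254455 to 30254508, minus strand) had 4.85 and 7.16, with 2494 IP reads against 40 in the input. RNU6-1266P had 4.65 and 7.04, RNU6-1329P 3.77 and 6.22, and RNU6-222P 3.74 and 5.98. In these 4 copies the higher replicate exceeded the lower by more than 2 log2 units, and the median gap over the 11 U6 windows was 2.18 against 0.64 over the whole list. The 5 U2 windows had a median gap of 0.69, although RNU2-59P had 1.60 and 4.11.

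RNU6-7 (ENSG00000201654.1, chromosome 14), one of 2 U6-class symbols in the set without a final P and annotated as an snRNA gene in RefSeq, held most of the U6 reads. Its 5' window (32202045 to 32202097, plus strand) had 14023 IP reads and 1652 input reads in RBM22, with log2 enrichments of 3.02 and 4.04, and ranked 4 in that list by IP reads. The adjoining 3' window (32202098 to 32202151) had 280 IP reads, 60 input reads and enrichments of 1.51 and 2.94. Over RBM22, 8 of the 10 U6 windows that could be placed in a RefSeq gene began within 20 nt of the annotated 5' end, and 2 were 3' windows. A U6 gene is divided into only 2 windows, so a place at the 5' end is a coarse measure. Input reads were skewed in the same way: the 5' window of RNU6-7 had 27.5 times the input reads of the 3' window, and 50.1 times the IP reads.

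RBM10, a splicing regulator found in early spliceosomal complexes, had 12 U2 windows and 14 U6 windows. The U2 windows had a lower-replicate median of 3.32 (range 1.62 to 5.69) and the U6 windows one of 2.90 (1.36 to 4.67), beside 2.77 over all 28544 RBM10 windows. Those with a lower value of at least 3 numbered 8 of 12 in U2 and 6 of 14 in U6, and 14 of the 29 of any class, against 41.4% of the list. Both q-values were no higher than 0.05 in 21 of 29, against 31.5% of the list. Here too the windows were rich in reads, and the windows of ranks 2 to 5 by IP reads in the whole RBM10 list were RNU2-1, U2, RNU2-4P and the 5' window of RNU6-7, with RNU2-61P at rank 7.

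The highest RBM10 values were in U2 copies. RNU2-5P (chromosome 9, 70188661 to 70188750, minus strand) had log2 enrichments of 5.69 and 8.55, with 255 IP reads and 1 input read. RNU2-4P (chromosome 17, 43387322 to 43387417, minus strand) had 5.56 and 5.74 from 19447 IP reads and 424 input reads. RNU2-59P (chromosome 10, 101364940 to 101365035, minus strand) had 5.51 and 6.17 from 508 and 8 reads. All 3 lay at or above 98.4% of the RBM10 list. RNU2-6P had 4.35 and 4.78, RNU2-3P 4.30 and 4.38, RNU2-26P 3.31 and 4.12. The gene RNU2-1 itself (ENSG00000274585.1, chromosome 17, 43233882 to 43233977, minus strand) had 2.33 and 2.61 from 36439 IP reads and 6670 input reads. Both of its values were below those of the 3 leading copies, and its input reads far exceeded theirs.

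U6 windows of RBM10 came from both ends of the gene. Of 14 placed windows, 8 were 5' and 6 were 3' windows. RNU6-38P (chromosome 13, 75109587 to 75109639, plus strand) had 4.67 and 5.37 with 85 IP reads and 1 input read, RNU6-582P 4.67 and 4.89, and RNU6-15P, a 3' window, 4.20 and 4.59. In RNU6-7 the 5' window had 17872 IP and 1223 input reads with enrichments of 2.97 and 3.87, and the 3' window 751 and 50 reads with 3.13 and 3.20, so the ranges of the 2 windows overlapped. RNU6-17P ran differently in the lists. In RBM10 its 3' window had 390 IP reads and its 5' window 192, while in RBM22 the 3' window had 276 and the 5' window 2494.

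**Figure D2:**
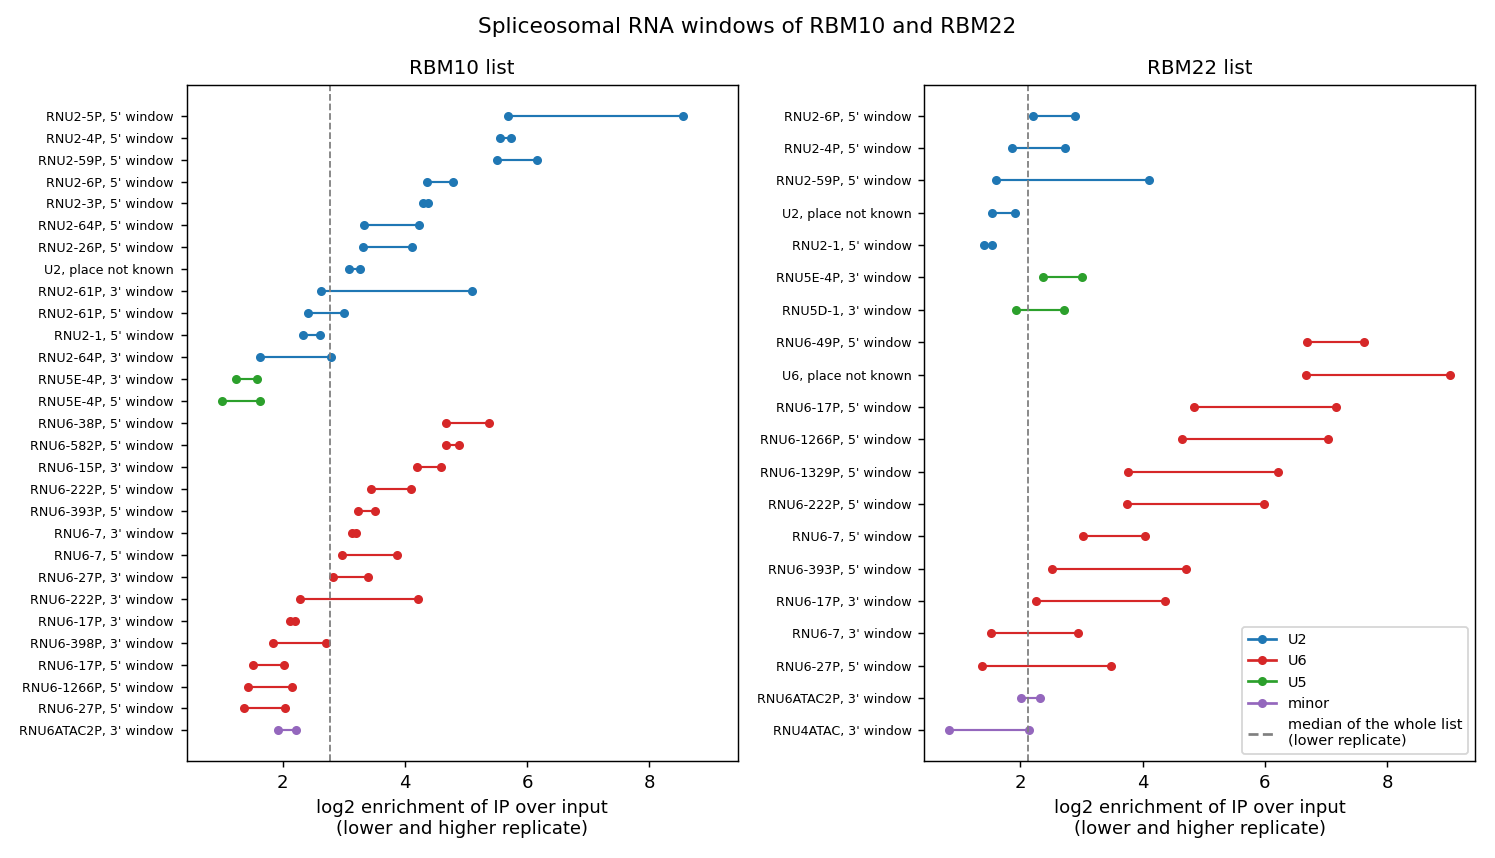
Log2 enrichment of IP over input in the lower and the higher replicate (joined points) for each of the 29 RBM10 and 20 RBM22 windows, coloured by RNA class, with the median of the whole list dashed. In RBM22 the U6 windows reach 6.69 in the lower replicate while the U2 windows stay at or below 2.20, and in RBM10 the U2 copies reach 5.69.

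Of the 20 RBM22 windows, 15 were also listed for RBM10, which is 75.0% of the RBM22 and 51.7% of the RBM10 windows. The position of a shared window within each list is given as the percentage of that list with a lower value, and it is no measure of a difference, since the lists differ in length. RNU2-4P stood at 98.6% of the RBM10 and 34.1% of the RBM22 list, RNU2-59P at 98.4% and 19.6%, and RNU2-1 at 30.3% and 10.1%. The 5' window of RNU6-17P stood at 3.53% and 98.8%, RNU6-1266P at 2.30% and 98.4%, and the 5' window of RNU6-7 at 57.6% and 85.1%. U2 windows were thus placed higher within the RBM10 list and these U6 windows higher within the RBM22 list. An exception was the 3' window of RNU6-7, at 62.8% and 14.9%.

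U2 was the class listed for the most proteins. It gave 33 windows from 12 distinct ones, in every list but those of GRB2 and MBNL2. RNU2-4P was listed for 6 proteins, RNU2-6P (chromosome 13, 46374496 to 46374590, minus strand) for 6, RNU2-59P for 5, and RNU2-1 and the gene named U2 (chromosome 17, 43290386 to 43290481, minus strand) for 4 each. RNU2-4P had enrichments of 1.94 and 2.91 in CPSF5, 1.86 and 2.73 in RBM22, 1.34 and 1.92 in RNPS1, 1.05 and 1.15 in CPSF6, and 0.85 and 1.02 in EIF4B, besides the 5.56 and 5.74 of RBM10. In EIF4B it had 309 IP reads and 755 input reads, the only one of the 130 windows with more input than IP reads. RNU2-1 and U2 had similar values within the CPSF6, RNPS1 and RBM22 lists: 0.78 and 1.48 against 0.96 and 1.70 in CPSF6, 1.14 and 1.46 against 1.24 and 1.55 in RNPS1, and 1.40 and 1.53 against 1.53 and 1.91 in RBM22. In RBM10 U2 had 3.08 and 3.27, above both values of RNU2-1.

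Of the 29 U2 windows that could be placed, 27 began at the annotated 5' end of the gene and 2 were 3' windows, both in RBM10 (RNU2-61P and RNU2-64P). A window counts here once for each list, so the 5' windows of RNU2-4P and RNU2-6P enter 6 times each. The 5' part of U2 carries the sequence that pairs with the branch point. The U2 genes and copies found in RefSeq were 177 to 191 nt long and divided into 2 windows. For U2 genes and copies whose 3' window was not listed, its input reads are unknown. In RNU2-61P, where both were listed, the 5' window had 4309 IP and 736 input reads and the 3' window 179 and 14. The 5' window of RNU2-61P thus had 24.1 times the IP reads and 52.6 times the input reads of the 3' window. In RNU2-64P the IP reads were nearly even, with 316 in the 5' window and 285 in the 3' window. Its input reads were 23 and 38, and its enrichments 3.34 and 4.23 against 1.62 and 2.79.

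**Figure D3:**
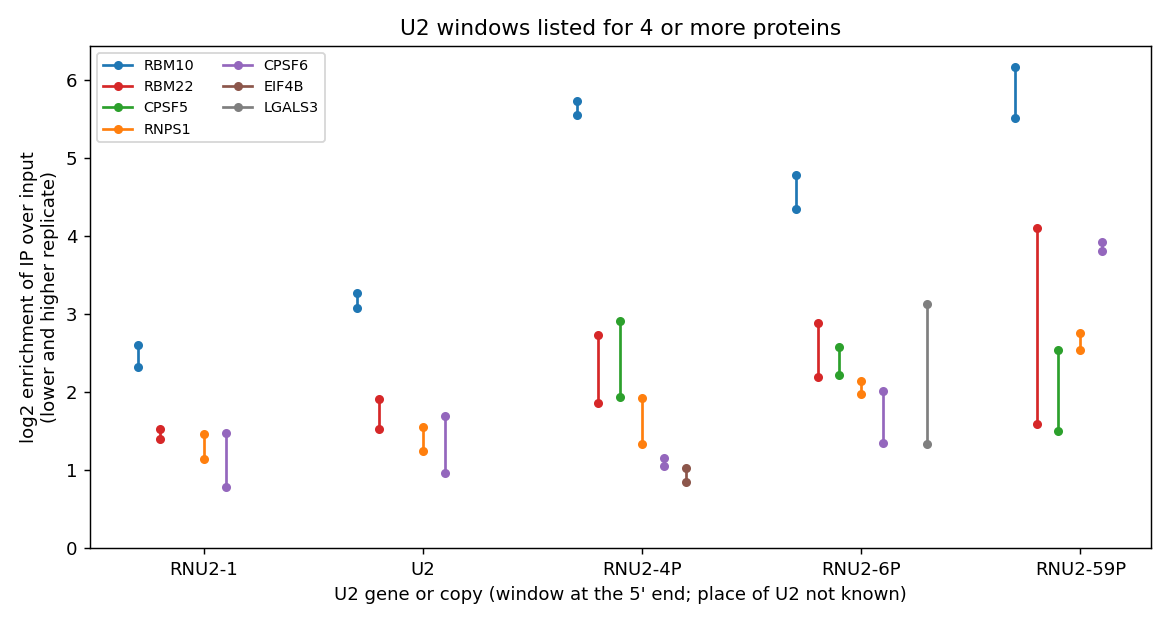
Log2 enrichment of IP over input, in the lower and higher replicate (joined points), of the 5 U2 windows listed for 4 or more proteins, one colour per protein. RBM10 values of RNU2-4P are 5.56 and 5.74, and those of the other proteins in that window lie between 0.85 and 2.91.

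The U2 windows of the other proteins were mostly low within their lists. For CPSF5 the values were 3.35 and 4.50 in RNU2-5P and 2.22 and 2.58 in RNU2-6P, with 3317 IP reads in RNU2-4P alone. RNPS1 reached 2.54 and 2.75 in RNU2-59P, which stood at 35.4% of its list. The CPSF6 values were 3.81 and 3.93 in RNU2-59P, from 34 IP reads and 3 input reads, and the other 4 U2 windows of CPSF6 stood at 2.08% of that list or lower. RNU6-7 was the one U6 gene of CPSF6 with a symbol of its own (5' window, 5545 IP reads, 1.41 and 2.36). In RNPS1 its 5' window had 3853 IP reads and values of 2.35 and 2.36, close between replicates.

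The remaining spliceosomal RNAs were rare. RNU5D-1 (annotated as an snRNA gene in RefSeq; chromosome 1, 44731055 to 44731112, minus strand) was listed for RBM22 with 1439 IP reads, 418 input reads and enrichments of 1.92 and 2.71. RNU5E-4P was listed for RBM22, at 2.36 and 3.01, and for RBM10, at 1.24 and 1.58 in the same window. Of the minor spliceosome, RNU4ATAC (chromosome 2, 121530944 to 121531007, plus strand) was listed for RBM22 with 263 IP and 139 input reads and values of 0.84 and 2.14. RNU6ATAC (chromosome 9, 134164502 to 134164564, minus strand) was listed for RNPS1 with 0.74 and 1.07, and the copy RNU6ATAC2P for RBM22 (2.01 and 2.32) and RBM10 (1.93 and 2.21). U1 gave a single window, in the copy RNU1-88P for RNPS1, with 2272 IP reads, 1048 input reads and values of 1.16 and 1.44. No window had a U4 symbol of its own.

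7SK copies gave 51 windows, 38 of them distinct, in 6 lists. CPSF5, the small subunit of the cleavage factor CFIm, had 21 windows in 20 copies. Of these, 20 began within 20 nt of the annotated 5' end of the copy, and the exception was a window of RN7SKP71 that began 159 nt downstream. A 7SK copy is divided into 3 or 4 windows, and the 35 7SK genes and copies placed here, joined symbols (described further on) included, had a median length of 240 nt (229 to 339). The CPSF5 5' windows had a GC content of 49.5 to 61.3%. Their enrichments were modest for that list: the lower-replicate median over the 21 windows was 2.23, against 2.81 over all 38826 CPSF5 windows. A lower value of at least 3 was reached by 4 of the 25 CPSF5 windows, against 43.1% of the list, and q-values no higher than 0.05 in each replicate by 20 of 25, against 63.0%.

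Read numbers of the CPSF5 windows in 7SK copies spanned a wide range. RN7SKP176 (chromosome 16, 81961926 to 81962004, plus strand) had 4539 IP reads and 757 input reads with enrichments of 1.86 and 3.28, and RN7SKP230 (chromosome 5, 109699751 to 109699834, minus strand) had 2696 and 779 reads with 1.51 and 2.11. They ranked 6 and 12 in the list by IP reads. At the other end RN7SKP224 had 12 IP reads and 2 input reads, and RN7SKP144 18 and 6. The highest enrichments of CPSF5 in 7SK copies were 3.75 and 4.93 in RN7SKP119 (chromosome 2, 47359687 to 47359777, minus strand; 93 IP and 6 input reads) and 3.55 and 3.81 in RN7SKP160 (chromosome 1, 173791548 to 173791632, plus strand; 326 and 50 reads), followed among the 7SK copies by 3.10 and 3.85 in RN7SKP131.

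RNPS1, a splicing activator and exon junction complex partner, had 14 windows in 7SK copies, spread along the gene. Of these, 3 were at the 5' end, 5 began 78 to 84 nt downstream and 6 began 156 to 170 nt downstream. The largest was the second window of RN7SKP71 (chromosome 12, 112267156 to 112267235, plus strand), with 45193 IP reads, 4347 input reads and enrichments of 1.78 and 1.80. RN7SKP203 had 2 windows, with 18896 and 10851 IP reads and lower values of 0.74 and 0.92. RN7SKP255 (chromosome 14) had 3 consecutive windows listed. The 5' window (89712511 to 89712588, plus strand) had 10881 IP reads and 2.54 and 2.80, the next had 4712 and 0.52 and 0.73, and the last 25 with 2.60 and 3.09. The highest RNPS1 value was 4.05 and 5.08 in RN7SKP30, from 27 IP reads and no input read. Windows in this class were low for the list, with a median of 1.73 against 2.93 over all 152730 RNPS1 windows. Of all 26 RNPS1 windows in the set, 1 reached a lower value of at least 3, against 47.7% of the list, and 15 a q-value of at most 0.05, against 63.1%.

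MBNL2, a muscleblind splicing regulator, had 8 windows in 7SK copies, and 6 of them began 152 to 170 nt from the 5' end. They were RN7SKP119, RN7SKP133, RN7SKP170, RN7SKP174, RN7SKP227 and RN7SKP69, with 12, 39, 12, 12, 30 and 20 IP reads. The other 2, RN7SKP255 and RN7SKP291 (1.12 and 1.21), lay at the 5' end. By IP reads these 2 held 6160 and the 6 downstream windows 125, so most reads were at the 5' end. RN7SKP170 (chromosome 4, 15093849 to 15093930, minus strand) had enrichments of 4.38 and 4.55 with no input read, RN7SKP119 3.80 and 5.74, and RN7SKP133 3.58 and 5.07. RN7SKP69 had 1.67 and 5.39, a gap larger than the lower value. For CPSF5, 4 of the same copies (RN7SKP119, RN7SKP133, RN7SKP170 and RN7SKP69) were listed at their 5' window instead. The median over the 8 windows was 2.41, beside 2.39 over all 42960 MBNL2 windows. A lower value of at least 3 was reached by 3 of the 10 MBNL2 windows of any class, against 25.7% of the list, and a q-value of at most 0.05 by 8, against 54.6%.

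RN7SKP255 was the one 7SK copy with the same window in 4 lists. In MBNL2 it had 6109 IP reads with 2.37 and 2.62, in EIF4B 11846 with 1.73 and 2.08, and in LGALS3 3061 with 1.19 and 2.11, besides RNPS1. Input reads were 1672, 4632, 1189 and 1322. EIF4B, an initiation factor that helps the EIF4A helicase, had 6 windows in 7SK copies, 5 at the 5' end, with values from 1.08 in RN7SKP243 to 2.54 in RN7SKP144. None of its 7 windows reached 3, against 44.2% of the list, and 3 had a q-value of at most 0.05, against 69.7%. For CPSF6, 3 of 7 windows passed that q-value, against 49.7%, and 1 reached 3, against 28.5%.

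**Figure D4:**
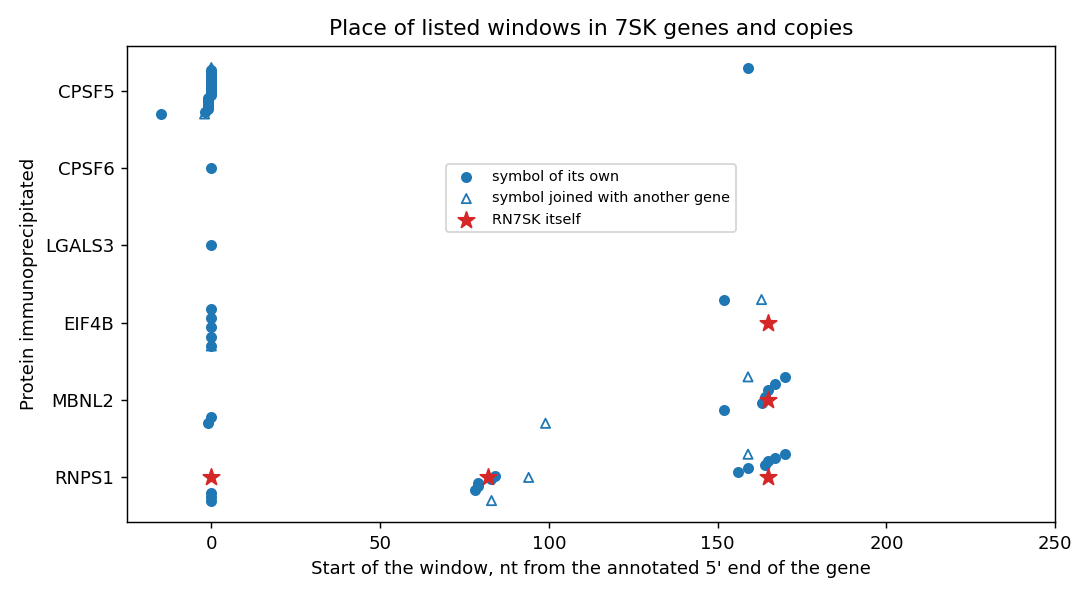
Start of listed windows in 7SK genes and copies, in nt from the annotated 5' end, for RNPS1, MBNL2, EIF4B, LGALS3, CPSF6 and CPSF5. Filled circles have a symbol of their own, triangles a symbol joined with another gene, and stars mark RN7SK. A joined RBM10 window at the 5' end of RN7SKP70 (2.66 and 4.89, 134 IP reads) is not drawn. All but 1 of the CPSF5 windows start within 20 nt of the annotated 5' end, RNPS1 windows spread over 3 places, and 6 of the 8 filled MBNL2 circles lie between 152 and 170 nt.

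Vault RNAs are short transcripts first found in the vault particle. VTRNA1-1 (chromosome 5, 140711275 to 140711373, plus strand) was listed for MBNL2, with 219 IP and 188 input reads and values of 1.27 and 1.70, for RNPS1, with 219 and 119 reads and 0.68 and 1.47, and for LGALS3, with 358 and 140 reads and 1.21 and 2.44. VTRNA1-2 (140718925 to 140719013) was listed for MBNL2 alone, with 1834 IP reads, 364 input reads and 2.79 and 3.01. The 3 LGALS3 windows had lower values of 1.19 to 1.34, and none passed a q-value of 0.05 in both replicates or reached 3, against 27.5% and 24.3% of that list.

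GRB2 had windows of other kinds. A gene on chromosome 17 is named U3, the name of a small nucleolar RNA of ribosomal RNA processing. It held 2 adjoining windows (58631641 to 58631738 and 58631739 to 58631836, minus strand) with 125 and 451 IP reads, 6 and 23 input reads, and lower values of 3.19 and 3.22. RN7SL521P (chromosome 7, 149125888 to 149125986, minus strand), a 7SL copy, had 13 IP reads, 1 input read and values of 2.35 and 3.67. These were the 3 GRB2 windows, of which 2 reached 3, against 63.4% of the list, and 2 a q-value of at most 0.05, against 50.9%.

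Several parent genes had no listed window under their own symbol, among them RNU1-1, RNU4-1, RNU5A-1, RNU6-1, RN7SL1, RN7SL2, RMRP and RPPH1. For such a gene the tables do not distinguish a lack of enrichment from too few reads. RN7SK was missing for another reason. Where a gene overlaps another annotation the authors joined the symbols, and 48 windows (36 distinct) had a joined symbol that holds one of the set, such as 7SK:RN7SK. These lie just outside the rule, 38 of the 48 overlap an intron, and they were added after the values were seen.

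With the joined windows RN7SK itself was listed for 3 proteins. RNPS1 had 3 windows in it (chromosome 6, 52995620 to 52995867, plus strand), with 28076, 51370 and 22657 IP reads from the 5' end on, 5521, 5467 and 6074 input reads, and lower values of 0.51, 1.63 and 1.37. For MBNL2 and EIF4B the window that begins 165 nt from the 5' end was listed, with 4396 IP and 7221 input reads and 0.60 and 0.60 for MBNL2, and 19869 and 17221 reads and 0.47 and 0.91 for EIF4B. All these windows were low within their lists. From the 5' end on, the RNPS1 windows stood at 0.0013%, 4.72% and 1.67% of the list. The MBNL2 window stood at 0.0209%, and the EIF4B window was the lowest of its list. The larger q-value was 0.193 in the RNPS1 5' window and 0.183 in the EIF4B window. The 6 downstream windows of MBNL2 in 7SK copies began at a similar distance, 152 to 170 nt. This match follows from the division of 7SK genes and copies into windows of similar length, which holds for every protein. For RNPS1, too, 6 windows in 7SK copies began 156 to 170 nt downstream. The match therefore cannot show a common MBNL2 site, which was not tested. CPSF5 had no listed window in RN7SK, although 23 of its 24 windows in 7SK copies, joined ones included, were at the 5' end.

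Joined U6 copies lie mainly in introns of other genes and added to the RBM22, RBM10 and CPSF6 lists. RBM22 then had 21 U6 windows with a lower-replicate median of 3.86, and 17 of the 19 that could be placed were 5' windows. RNU6-658P in GFM2 (chromosome 5, 74725152 to 74725204, minus strand) had 6.26 and 6.62 from 666 IP reads and 12 input reads, RNU6-107P in GIGYF2 5.70 and 6.76, and RNU6-890P in UBR2 5.48 and 9.56 with 273 IP reads and no input read. RBM10 had 22 U6 windows, 12 of the 21 placed being 5' windows, and RNU6-826P in IGF2BP1 reached 4.87 and 6.35. The window with the most IP reads of the whole RBM10 list, 55238, was RNU2-2P, which overlaps the 5' UTR of WDR74 (chromosome 11, 62841714 to 62841809, minus strand), with 2.55 and 2.78. For RBM22 the same window had 15037 IP reads and 1.39 and 1.55. Together, windows with a symbol of their own and joined windows held 9.64% of IP reads in RBM22, 7.97% in RBM10 and 2.63% in RNPS1. The share with joined windows was 0.709% in CPSF5, 0.482% in MBNL2, 0.436% in CPSF6, 0.346% in EIF4B and 0.00450% in GRB2, and LGALS3 had no joined window.

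Neighbouring windows came from the set itself or not at all. None of the 130 had another listed window from outside the set within 200 nt on the same strand in its list. Between 37.6% (LGALS3) and 91.1% (GRB2) of all windows of a list had a neighbour at that distance. That share counts neighbours of any kind, so it is not a like measure. The lack of outside neighbours is nearly fixed by the rule, since copies inside other genes carry joined symbols and so fall outside the set. Of the 48 joined windows 9 had such a neighbour, 5 of them in CPSF6. Windows of the set next to another of the set numbered 14 of 29 in RBM10, 12 of 26 in RNPS1, 4 of 20 in RBM22, 2 of 25 in CPSF5 and 2 of 3 in GRB2. Windows of the set were also shared between proteins: 27 of 79 distinct windows were listed for 2 or more proteins, against 22.3% of all distinct windows, and 7 for 4 or more, against 1.72%. Abundant RNA is easier to detect in every list, and its part in the sharing was not tested.

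The messenger RNAs of the proteins that work with these RNAs were compared through 54 genes. Of these, RNPS1 and EIF4B had windows in 53 each, against 87.7% and 90.1% of all genes that had a window in any list. CPSF6 had 51 (84.9%), CPSF5 47 (62.2%), MBNL2 41 (63.1%), RBM10 35 (45.8%), GRB2 20 (47.3%), RBM22 17 (23.8%) and LGALS3 1 (3.44%). Among 14 Sm and LSm core genes, whose proteins form rings on snRNAs, all had CPSF5, EIF4B and RNPS1 windows and 2 had RBM22 windows. EIF4B was strongest there in 5' UTRs, with 7.20 and 8.21 in LSM5, 6.22 and 6.55 in SNRPB and 6.06 and 6.30 in LSM2. The LSM5 window had 183 IP reads and no input read. Of 9 U2 protein genes RBM10 had windows in 8, with 5.28 and 5.41 in SF3B3 and 5.15 and 5.75 in SF3A1. These windows of SF3B3 and SF3A1 had 40 and 52 IP reads and no input read.

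Of 7 genes for the 7SK particle and P-TEFb, RNPS1, CPSF5, CPSF6 and EIF4B had windows in 6 each. Over all genes with a window in any list, the shares were 87.7%, 62.2%, 84.9% and 90.1% in that order. With so few genes, no difference from these shares was tested. LARP7, the 7SK chaperone gene, had its strongest RNPS1 window at 7.04 and 7.07, and CCNT2, a cyclin of P-TEFb, at 6.24 and 6.27. Both windows had no input read, with 108 IP reads in LARP7 and 60 in CCNT2. HEXIM1, the P-TEFb inhibitor gene, had 5.77 and 6.09 in its 3' UTR for MBNL2, from 13 IP reads and no input read. SRP9, which encodes a signal recognition particle protein, was listed for all 9 proteins and was the single one of the 54 in the LGALS3 list (2.83 and 3.52). Of 15 snRNP assembly genes RBM22 had windows in 4, against 23.8% of all genes with a window in any list. Its values were 4.94 and 5.35 next to a 5' splice site of GEMIN8 and 3.57 and 4.52 in coding sequence of GEMIN4.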

How the data were processed

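The files analysed are 9 tables, one per protein, of windows enriched in IP over input. Read counts of each window, IP and input, were deposited by the authors as whole numbers summed over the 2 replicates. The log2 odds ratio of IP over input was deposited as a lower, mean and higher value, and each deposited row also holds the smaller and larger p-value, the smaller and larger q-value and the GC fraction. Per the submitters' processing notes, coordinates are those of hg38. Which aligner, caller of windows and gene annotation were used is not given in the sources used here. Coordinates are 1-based.

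Windows were selected and classed by symbol with Python 3.11.15, numpy 2.4.6, pandas 2.3.3, scipy 1.17.1 and matplotlib 3.10.9, and the selection, interval and distance code was tested on simulated data. RefSeq gene ends (GRCh38.p14) placed 123 of the 130 windows, with a tolerance of 20 nt. No count per library was available, so no test between proteins was run. Values are the authors' own and are described within each list. Library depth is unknown; between 187076 (LGALS3) and 13313477 (GRB2) IP reads fell in listed windows.

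The members, classes and gene lists were chosen with earlier results of these data known. Genes were named by a fixed rule: members without a final P, the 3 strongest windows of each protein, members listed for 4 or more proteins, at most 30 in full. Because 7SK copies carry the P before the number, that rule covered them too, and other genes named were chosen after their values were seen. Joined symbols were added after the values were seen.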

Additional observations from a re-analysis of the deposited data

How the results depend on the processing

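Leaving out a replicate could not be run, because the deposited counts are sums over replicates. No paired analysis was possible because the tables hold no value per numbered replicate and no test was run. With the q-value at most 0.05 in both replicates, windows fell to 3 in CPSF6, 3 in EIF4B, 0 in LGALS3 and 15 in RNPS1, the share of list windows moved to 0% in LGALS3, 0.234% in RBM10 and 0.564% in RBM22, and 16 distinct windows were listed for 2 or more proteins in place of 27. Symbols without a final P left 4 windows in CPSF6, 4 in RBM10 and 7 in RBM22, with 0.528% of IP reads in CPSF5, 0.267% in CPSF6, 0.129% in EIF4B, 3.87% in RBM10, 5.28% in RBM22 and 1.24% in RNPS1. Leaving out RN7SKP symbols as well, an alternative chosen after seeing the data, left 0 windows in CPSF5, 3 in CPSF6, 0 in EIF4B, 1 in LGALS3, 2 in MBNL2, 4 in RBM10, 7 in RBM22 and 6 in RNPS1. Joined symbols, also added after seeing the data, raised CPSF6 to 13 windows and RBM22 to 31. Without the window with most IP reads, the share of IP reads was 0.484% in CPSF5, 0.154% in CPSF6, 0.00586% in EIF4B, 0.00104% in GRB2, 0.215% in LGALS3, 0.0827% in MBNL2, 3.54% in RBM10, 4.62% in RBM22 and 0.764% in RNPS1. In the higher replicate the median log2 enrichment was 2.89 in CPSF5, 2.01 in CPSF6, 2.02 in EIF4B, 4.14 in GRB2, 2.44 in LGALS3, 3.13 in MBNL2, 3.51 in RBM10, 3.77 in RBM22 and 2.03 in RNPS1, and as the mean of replicates 2.80 in MBNL2 and 1.84 in RNPS1. A value is given above where a count moved by more than 1.5 times or a share left its 95% Wilson interval. A median is given where it moved by more than the typical replicate SD. With 2 replicates that SD is smaller than the gap between them. The median of the higher replicate therefore passed it in every list largely by construction. These limits are wide for small numbers and narrow for shares of reads: the remaining 63 alternative values, all inside them, include RBM10 rising from 29 to 41 windows with joined symbols and the EIF4B share of list windows falling from 0.0102% to 0.00626% at the stricter q-value. Depth limits windows with few reads, such as the 12 IP reads of RN7SKP170 in MBNL2.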

Other observations

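Other small RNAs lay outside the symbol rule. RBM22 had 10 such windows, 9 of them in small Cajal body RNA (scaRNA) genes, whose products guide the modification of spliceosomal snRNAs. SCARNA2 was the largest of these, with 9446 IP reads, 1165 input reads and log2 enrichments of 1.80 and 2.59. SCARNA12 and SCARNA13 had 2 windows each and SCARNA5, SCARNA6, SCARNA10 and SCARNA21 1 each, with lower values from 0.62 to 1.61. EIF4B had a window in SCARNA6 (1.08 and 1.11), and the remaining lists had none in a scaRNA gene. In RBM22 the scaRNA windows were low for a list whose median is 2.12.

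U3 genes with a SNORD3 symbol were listed for MBNL2 with values close between replicates. The values were 3.68 and 3.69 in SNORD3A (31007 IP and 14407 input reads) and 3.35 and 3.47 in SNORD3B-1. In SNORD3C they were 3.80 and 3.81, and in SNORD3D 3.97 and 3.98. SNORD3A was also listed for EIF4B, with 52999 IP and 40324 input reads and 1.86 and 2.08. For LGALS3 it had 24476 and 14513 reads and 1.53 and 1.93. EIF4B also had windows in SNORD3B-1 (1.40 and 1.63), SNORD3C (2.48 and 2.92) and SNORD3D (1.78 and 1.81). LGALS3 had windows in the same genes, SNORD3B-1 (1.85 and 2.03), SNORD3C (1.10 and 1.59) and SNORD3D (1.64 and 1.86). CPSF5 had windows in SNORD3B-1 (0.83 and 1.00) and SNORD3E (4.44 and 6.81). SNORD3C was listed for CPSF6 (1.01 and 1.10), and SNORD3B-1 for RBM22 (0.61 and 2.98). Y RNA genes, which encode short partners of the Ro protein, were listed for LGALS3 with 2.87 and 2.98 in RNY1 and 1.94 and 2.08 in RNY3, and for EIF4B with 1.74 and 1.93 in RNY1. Windows with the symbol Y_RNA, alone or joined, were also listed for CPSF5 (2.10 and 4.58 in one, 2.35 and 3.43 in another), CPSF6 (1.98 and 2.69), EIF4B (1.51 and 2.45) and GRB2 (1.57 and 5.05), each with at most 43 IP reads. Variant U1 genes had 1 window each in RBM10 (RNVU1-15, 2.28 and 2.61), RNPS1 (RNVU1-21, 3.89 and 4.23) and EIF4B (RNVU1-8, 2.18 and 5.17). These values were chosen after they were seen, and none was tested.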
